A study of Mus musculus with 8 samples.

Results

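The genes described here encode the proteasome, its assembly chaperones, its activators and its inhibitor. They were taken as every row of the count table whose mouse symbol is Psm, a letter from a to g and a number, leaving out the immunoproteasome subunits Psmb8, Psmb9 and Psmb10 and rows named as pseudogenes. The rule found 45 genes, and 44 of them had any count, out of 27561 genes with any count and 55414 rows in all. The exception was Psmb11, a beta subunit known from the thymus, which had 0 counts in each library. The 44 genes were 15 subunits of the 20S core, 17 subunits of the 19S cap, 7 assembly chaperones, 4 activators and 1 inhibitor. RNA was measured by sequencing in Kupffer cells, macrophages that live in the blood vessels of the liver, sorted by fluorescence from wild-type (WT) C57BL/6J animals. Cells were prepared 2 h after sham surgery (Sham) or 2 h after caecal ligation and puncture (CLP), in which leakage of gut bacteria into the abdomen serves as a model of sepsis. Each group had 4 libraries, no group carried an engineered allele in the labels, and the age of the mice is not given in the sources used here. Whether every library was a different mouse is not stated in the labels, and p-values then cover only the spread among these libraries, which may be technical.

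The proteasome is the large protease that destroys proteins tagged with ubiquitin. Its 20S core is a barrel of alpha and beta rings with the cutting sites inside, and the 19S cap binds the tagged protein, removes the ubiquitin, unfolds the chain and feeds it into the barrel. In macrophages it degrades the inhibitors that hold back NF-kB signalling and makes peptides for display on MHC class I, and an inflammatory form carries immunoproteasome subunits in place of the constitutive cutting subunits.

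Libraries held 23311897 to 28724875 counts, and 14655 genes passed the count filter, all 44 proteasome genes among them. No proteasome gene had a Sham mean under 1 CPM (counts scaled to a common library size). One library, CLP replicate 1, differed most from its group, with correlations across genes of 0.968 to 0.972 to the other 3. Levels are CPM scaled by the trimmed mean of M-values (TMM), and a gene is called higher or lower where edgeR's quasi-likelihood test gave an adjusted p under 0.05 over all genes tested. The scaling matters for direction here, because the TMM factors were 0.801 to 0.837 in CLP and 1.16 to 1.28 in Sham. Scaling by total counts alone moved the median log2 fold change of all genes from -0.04 to -0.60, and "rose" and "fell" below refer to the TMM scaling unless a sentence says otherwise. The summed level of 12 Kupffer cell markers was 37511 to 48562 CPM in CLP and 29557 to 37979 CPM in Sham, with 3 higher and 0 lower. Markers of other cells were checked as well, where 24.9% of all genes tested were higher and 29.5% lower. The summed neutrophil markers were 258 to 671 CPM in CLP and 102 to 145 CPM in Sham, with all 10 tested of 12 higher and 6 of the 12 under 1 CPM in Sham. Platelet markers summed to 130 to 205 CPM in CLP and 18.6 to 31.3 CPM in Sham, with 6 of 6 tested higher and Gp1bb at 0 throughout. B cell markers summed to 24.0 to 39.5 CPM in CLP and 9.69 to 14.8 CPM in Sham, with 7 of 8 higher, 1 lower and 6 under 1 CPM in Sham. Endothelial markers summed to 2252 to 2773 CPM in CLP and 1561 to 1977 CPM in Sham (4 of 8 higher), and hepatocyte markers to 2779 to 3717 CPM and 2123 to 2915 CPM (1 of 8 higher), with none of either list under 1 CPM in Sham. The hepatocyte sums overlapped. So did those of monocyte markers, at 225 to 369 CPM in CLP and 173 to 292 CPM in Sham (1 of 4 tested higher). Stellate cell markers had 1 of 6 higher and red cell markers 2 of 2 tested, and no T and NK cell marker was tested. The part of these cells in the proteasome values was not tested, and in sorted bulk RNA fewer cells of a type and less RNA per cell cannot be told apart.

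By TMM scaling, most subunits of the proteasome were higher after CLP and most assembly chaperones with a Psm name were lower, whereas with total-count scaling more subunits were lower (10) than higher (2). Of the 44 genes, 26 were higher in CLP (59.1%), against 24.9% of all genes tested, and 6 were lower (13.6%), against 29.5% of all genes tested. The median log2 fold change was 0.39, against -0.04 over all genes. The genes higher in CLP were 21 of the 32 subunits, all 4 activators and 1 assembly chaperone, and with total-count scaling only 2 genes were called higher (background 11.7%) and 17 lower (background 56.6%). The genes lower in CLP were 5 of the 7 assembly chaperones and the inhibitor, and these 6 were also called lower with total-count scaling. In 29 genes all 4 CLP libraries lay above all 4 Sham libraries, and in 5 genes they lay below, against 22.1% and 27.3% of all genes tested. Without CLP replicate 1, 25 genes were higher and 5 lower, when 9232 genes of the whole table were called in either direction, against 7963 with all libraries.

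**Figure D1:**
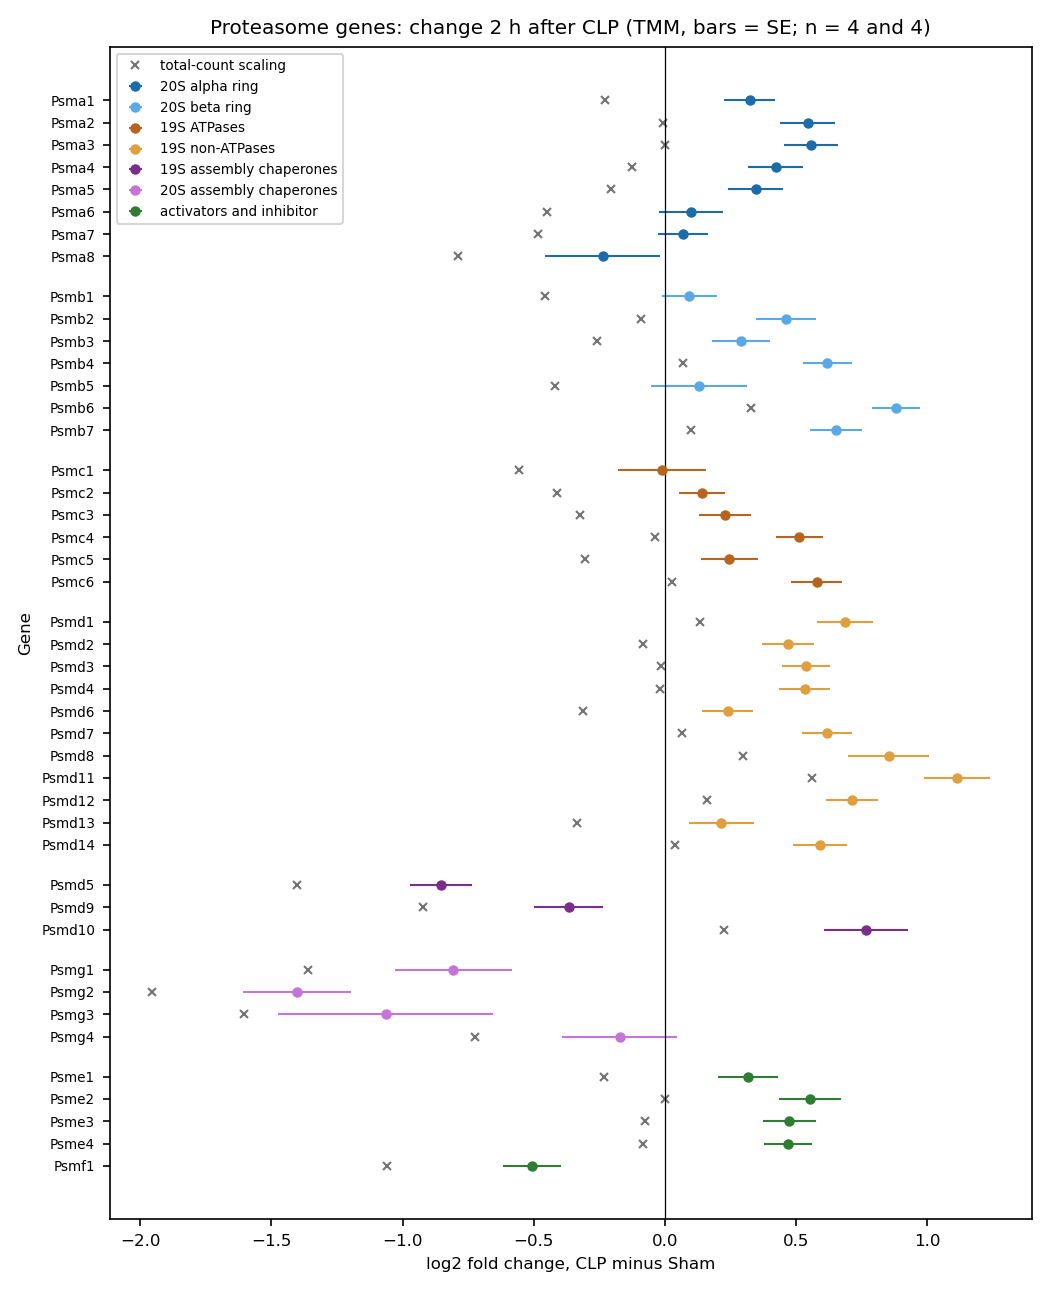
Log2 fold change (CLP minus Sham, horizontal axis) of each of the 44 proteasome genes, grouped by role, with circles and SE bars for TMM scaling and grey crosses for total-count scaling (4 libraries per group). With TMM most subunits lie right of 0. The 5 assembly chaperones called lower and Psmf1 lie left of it, as do Psmg4, Psma8 and, at -0.01, Psmc1, none of them called. With total-count scaling the subunits centre near or below 0. Psmb6 and Psmd11 stay right of it and were called higher, while several other subunits lie right of it without a call. The 5 chaperones called lower and Psmf1 stay left.

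For the 20S core, of 15 detected subunits, 10 were higher (66.7%, against 24.9% of all genes tested) and 0 lower (against 29.5%). The median log2 fold change was 0.35. Total-count scaling gave 1 higher, 4 lower and a median of -0.21. Over all genes tested, that scaling gave 11.7% higher, 56.6% lower and a median of -0.60. In the alpha ring, the gate and outer wall of the barrel, Psma1, Psma2, Psma3, Psma4 and Psma5 rose, by log2 fold changes of 0.32 to 0.56. The other alpha subunits, Psma6, Psma7 and Psma8, were not called. In the beta ring, which holds the cutting sites, Psmb2, Psmb3, Psmb4, Psmb6 and Psmb7 rose, by 0.29 to 0.88, while Psmb1 and Psmb5 were not called. The call of Psmb3 was lost on leaving out any one library except Sham replicate 1 (adjusted p 0.0519 to 0.116), and that of Psma1 without Sham replicate 2 (0.0567) and with the GC correction (0.0592). With no filter on low counts, Psma1, Psma5 and Psmb3 were not called and 7 core subunits were higher, when 8354 genes of the whole table were called in either direction.

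Psmb6 (ENSMUSG00000018286), the constitutive subunit that cuts after acidic residues, showed the highest fold change of the core. Its levels were 76.0, 79.4, 77.8 and 83.0 CPM in CLP replicates 1 to 4 and 45.2, 41.9, 39.7 and 44.9 CPM in Sham replicates 1 to 4. The groups were far apart, with no CLP library near a Sham one. The log2 fold change was 0.88 ± 0.09 (SE, adjusted p by edgeR = 2.43e-05), and by total counts it was still higher at 0.33 (adjusted p = 0.00785). Psmb7 (ENSMUSG00000026750), which cuts after basic residues, stood at 59.5, 62.2, 55.6 and 58.3 CPM in CLP and 40.6, 38.5, 33.0 and 37.8 CPM in Sham. All 4 CLP values were above all Sham values, with a log2 fold change of 0.65 ± 0.10 (SE, adjusted p by edgeR = 0.000276). Part of that count may come from another gene, since 34.9% of the exon bases of Psmb7 overlap Nek6 on the opposite strand and the strand setting of the count is not given in the sources used here. Psmb5 (ENSMUSG00000022193), the subunit that cuts after hydrophobic residues and the main target of proteasome inhibitor drugs, had 16.9, 14.8, 12.5 and 11.9 CPM in CLP against 15.0, 13.7, 8.92 and 13.7 CPM in Sham. Its groups overlapped, and the log2 fold change of 0.13 ± 0.18 (SE) did not pass (adjusted p by edgeR = 0.571). Of the 3 constitutive cutting subunits, 2 were called higher by TMM, against 24.9% of all genes tested, and 1 by total counts, against 11.7%.

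Psmb4, a beta subunit without a cutting site, stood at 74.6, 70.2, 72.0 and 69.1 CPM in CLP and 49.1, 48.2, 41.3 and 47.4 CPM in Sham. The groups did not overlap, and the log2 fold change was 0.62 ± 0.09 (SE, adjusted p by edgeR = 0.000279). At the other end, Psma7, an alpha ring subunit, had 85.5, 73.4, 80.3 and 77.2 CPM in CLP and 77.9, 75.5, 69.3 and 79.0 CPM in Sham. Those values were interleaved, with a log2 fold change of 0.07 ± 0.09 (SE, adjusted p by edgeR = 0.557). Psmb1, another beta subunit without a cutting site, was at 59.1, 50.2, 55.4 and 51.0 CPM in CLP against 52.8, 51.2, 43.9 and 54.1 CPM in Sham. Again the groups overlapped (log2 fold change 0.09 ± 0.10 SE, adjusted p by edgeR = 0.469). Psma8, the testis counterpart of Psma7, was the lowest of the core at 4.41, 3.61, 2.7 and 2.54 CPM in CLP and 4.28, 3.99, 3.35 and 4.03 CPM in Sham. Its log2 fold change of -0.24 ± 0.22 (SE) did not pass (adjusted p by edgeR = 0.382), and its groups overlapped. With total-count scaling, Psma6, Psma7, Psma8 and Psmb1 were the 4 core genes called lower, where 56.6% of all genes tested were lower.

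Proteasome genes are known targets of Nfe2l1 and Nfe2l2, transcription factors that bind the antioxidant response element in promoters. A promoter window of 300 bases, from 250 before to 50 after the start, was given by RefSeq (GRCm38.p6) for 36 of the 44 genes. The core of that element, TGACNNNGC on either strand, was found in 6 of the 36 (16.7%), against 14.0% of 27025 genes. The stretches for both core subunits that hold it are shown with one of the cap, one of an assembly chaperone and one of an activator, so that genes that rose and genes that did not can be set side by side. Capitals mark the match, and each is read along its gene's own strand.
Psmb6: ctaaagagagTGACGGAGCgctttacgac
Psmb5: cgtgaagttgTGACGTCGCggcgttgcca
Psmc6: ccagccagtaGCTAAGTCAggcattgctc
Psmd9: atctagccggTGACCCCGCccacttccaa
Psme4: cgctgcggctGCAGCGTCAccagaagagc
They lie at chr11:70525338-70525366 (plus strand) for Psmb6, chr14:54618024-54618052 (minus strand) for Psmb5, chr14:45329587-45329615 (plus strand) for Psmc6, chr5:123228149-123228177 (plus strand) for Psmd9 and chr11:30771758-30771786 (plus strand) for Psme4. In Psmc6 and Psme4 the match is on the reverse strand. The remaining gene with the element was Psmd12. Of these 6 genes, Psmb6, Psmc6, Psmd12 and Psme4 were called higher in CLP, Psmd9 lower and Psmb5 neither. Among all 44 proteasome genes, with or without the element, 59.1% were called higher. With total-count scaling only Psmb6 of the 6 was higher, and Psmd9 was lower. A link between the element and these calls was not tested. A CCAAT box on either strand, a separate search, was in 12 of the 36 windows (33.3%), against 41.1% of all genes, and in 6 of 11 core windows (54.5%) and 4 of 14 cap windows (28.6%).

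For the 19S cap, of 17 subunits, 11 were higher (64.7%, against 24.9% of all genes tested) and 0 lower (against 29.5%). The median log2 fold change was 0.53. Total-count scaling gave 1 higher, 6 lower and a median of -0.02, against 11.7%, 56.6% and a median of -0.60 over all genes tested. Among the 6 ATPases, the ring that unfolds the substrate, Psmc4 and Psmc6 rose, by 0.51 and 0.58, and the median was 0.24. Of the 11 non-ATPase subunits, 9 rose, with a median of 0.59. They include Psmd1 and Psmd2, the scaffold of the base (log2 fold changes 0.69 and 0.47), Psmd4, a ubiquitin receptor (0.53), and Psmd14, the enzyme that removes ubiquitin chains (0.59). The difference between ATPases and non-ATPases was not tested. DESeq2 called 15 of the 17 higher, with Psmc2, Psmc3, Psmc5 and Psmd6 in addition, and 30 of all 44 genes higher and 6 lower, against 29.0% and 28.4% of all genes tested.

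Psmd11 (ENSMUSG00000017428), a lid subunit known to promote assembly of the full 26S particle, had the highest fold change of all 44 genes. It stood at 123, 150, 140 and 181 CPM in CLP replicates 1 to 4 and 71.9, 71.2, 63.8 and 67.2 CPM in Sham replicates 1 to 4. Its lowest CLP library was well above the highest Sham library. The log2 fold change was 1.11 ± 0.13 (SE, adjusted p by edgeR = 4.31e-05), and with total-count scaling Psmd11 was the only cap subunit still higher, at 0.56 (adjusted p = 0.00185). Psmd8, also a lid subunit, had 79.5, 81.7, 76.5 and 124 CPM in CLP and 48.8, 53.1, 48.6 and 50.01 CPM in Sham. CLP replicate 4 was far above the rest, and the other 3 were close together. The log2 fold change was 0.85 ± 0.15 (SE, adjusted p by edgeR = 0.000899) and 0.67 without that library. Psmd12, another lid subunit, was at 57.1, 57.6, 60.1 and 61.8 CPM in CLP and 39.5, 38.4, 34.3 and 32.05 CPM in Sham. The groups did not overlap, with a log2 fold change of 0.71 ± 0.10 (SE, adjusted p by edgeR = 0.000174).

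The lowest fold changes of the cap were those of Psmc1, Psmc2 and Psmd13. Psmc1, an ATPase, had 111, 73.4, 83.6 and 85.4 CPM in CLP and 97.0, 103, 65.4 and 91.4 CPM in Sham. Libraries of both groups covered the same range, and the log2 fold change was -0.01 ± 0.17 (SE, adjusted p by edgeR = 0.961). Psmc2, another ATPase, was at 62.3, 57.6, 60.3 and 61.5 CPM in CLP and 57.0, 55.9, 50.9 and 55.2 CPM in Sham. Here the groups did not overlap, by a narrow margin, but the log2 fold change of 0.14 ± 0.09 (SE) did not pass (adjusted p by edgeR = 0.191). Psmd13, a lid subunit, had 40.5, 34.8, 31.5 and 35.3 CPM in CLP and 34.9, 27.9, 26.6 and 32.8 CPM in Sham, which overlapped (log2 fold change 0.22 ± 0.12 SE, adjusted p by edgeR = 0.16). With total-count scaling, Psmc1, Psmc2, Psmc3, Psmc5, Psmd6 and Psmd13 were called lower, where 56.6% of all genes tested were lower.

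Core and cap were then set against each other. The summed level of the 15 core subunits was 889 ± 30.2 CPM after CLP against 680 ± 55.3 CPM after Sham (SD, n = 4), a ratio of 1.31. The cap summed to 1267 ± 63.7 CPM after CLP against 885 ± 59.3 CPM after Sham (SD, n = 4), a ratio of 1.43. With total-count scaling these ratios were 0.892 and 0.976, so the direction of both sums turned with the scaling. The ratio of core to cap within a library does not depend on it: 0.742, 0.693, 0.727 and 0.649 in CLP replicates 1 to 4 and 0.759, 0.779, 0.746 and 0.789 in Sham replicates 1 to 4. CLP libraries were all lower than Sham libraries, by 0.13 on the log2 scale, though CLP replicate 1 and Sham replicate 3 were almost equal. Divided by exon length, the ratio was 1.08 to 1.23 in CLP and 1.19 to 1.25 in Sham, which overlapped. From means of log2 CPM, where each gene counts alike, it was 0.635 to 0.742 in CLP and 0.723 to 0.783 in Sham, also with overlap. In the cap sum, Psmd11 alone held 123 to 181 CPM in CLP and 63.8 to 71.9 CPM in Sham. As a score over chosen genes, this balance was given no test.

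The assembly chaperones, which hold part-built rings together and leave the finished particle, gave the largest falls. Of 7, 5 were lower (Psmd5, Psmd9, Psmg1, Psmg2 and Psmg3), 1 was higher (Psmd10) and Psmg4 was not called. The share lower was 71.4%, against 29.5% of all genes tested, and the median log2 fold change was -0.81. With total-count scaling the same 5 and Psmg4 were lower, against 56.6% of all genes tested, and Psmd10 was not called. Psmg1 and Psmg2 form the pair that starts the alpha ring. Psmg2 (ENSMUSG00000024537) had 3.45, 2.09, 2.15 and 2.44 CPM in CLP replicates 1 to 4 and 6.57, 5.94, 7.04 and 7.36 CPM in Sham replicates 1 to 4. Every CLP library was far below every Sham library, with a log2 fold change of -1.40 ± 0.20 (SE, adjusted p by edgeR = 0.000223), the lowest of all 44 genes. Psmg1 was at 5.37, 3.82, 2.93 and 2.78 CPM in CLP and 6.78, 6.28, 5.94 and 7.15 CPM in Sham. CLP replicate 1 lay closest to Sham but the groups did not overlap, and the log2 fold change was -0.81 ± 0.22 (SE, adjusted p by edgeR = 0.0106). Without that library it was -1.04.

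Psmg3 and Psmg4 form a second pair, which guides the order of the alpha subunits. Psmg3 had 1.5, 0.524, 2.52 and 1.17 CPM in CLP, from 36, 10, 55 and 24 counts, and 3.82, 2.35, 2.08 and 3.79 CPM in Sham, from 125, 77, 62 and 124 counts. CLP replicate 3 was above 2 of the Sham libraries. The log2 fold change was -1.06 ± 0.41 (SE, adjusted p by edgeR = 0.0474), and the call was lost on leaving out any one of 6 libraries, CLP replicates 1, 2 and 4 and Sham replicates 1, 2 and 4 (adjusted p 0.0544 to 0.119). In addition, 26.8% of its exon bases overlap the gene Gm26938 on the same strand. Psmg4 stood at 6.49, 4.24, 7.10 and 3.8 CPM in CLP and 5.56, 6.49, 5.73 and 6.63 CPM in Sham. CLP replicate 1 lay within the Sham range, replicate 3 above it and replicates 2 and 4 below it (log2 fold change -0.17 ± 0.22 SE, adjusted p by edgeR = 0.529).

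**Figure D2:**
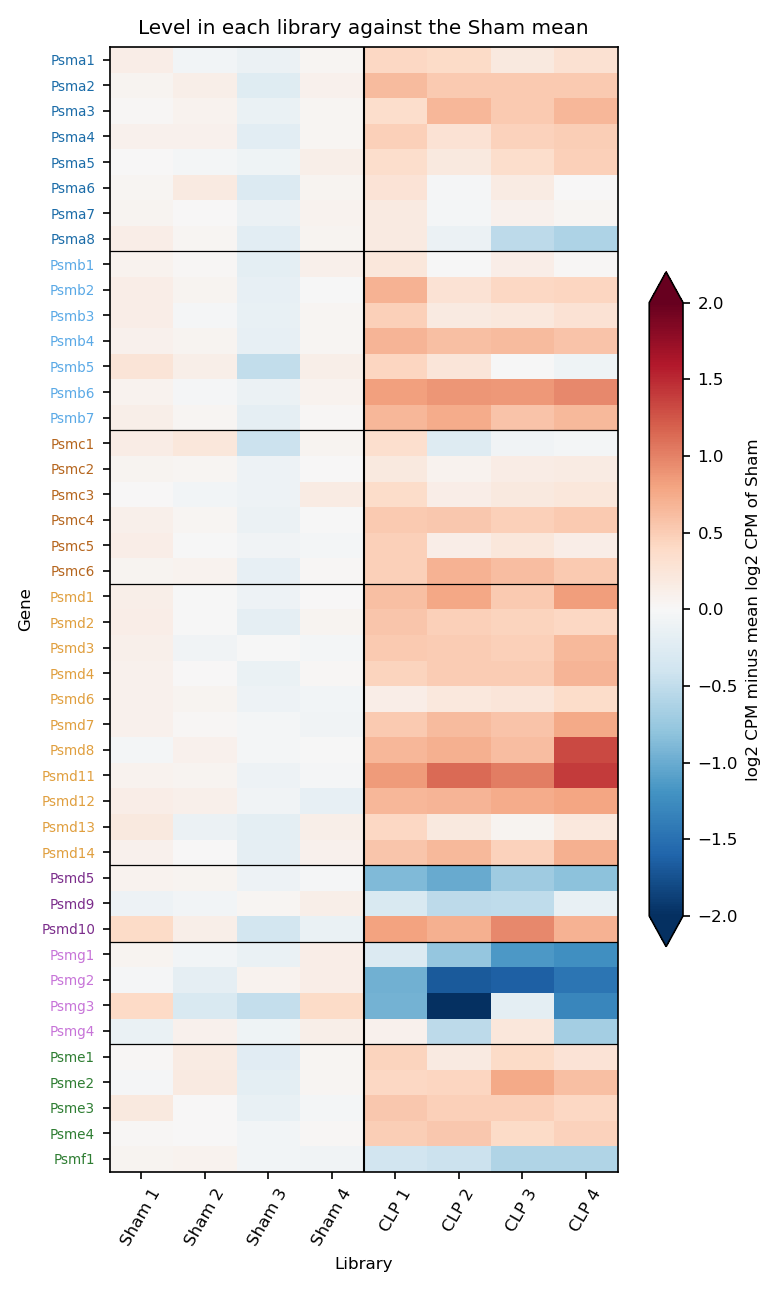
Log2 CPM of each of the 44 genes in each of the 8 libraries, minus the Sham mean of that gene, with gene names coloured by role and lines between roles (colours end at -2 and 2). Most subunits are red in the 4 CLP columns by TMM, although with total-count scaling their medians lie below 0; Psmd5, Psmd9, Psmg1, Psmg2 and Psmf1 are blue in all 4, and Psmg4 is mixed.

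Psmd5, Psmd9 and Psmd10 are chaperones of the 19S base that bind its ATPases. Psmd5 (ENSMUSG00000026869) had 8.66, 7.96, 9.80 and 9.12 CPM in CLP and 16.8, 16.6, 15.0 and 15.7 CPM in Sham. The groups were wide apart, and the log2 fold change was -0.85 ± 0.12 (SE, adjusted p by edgeR = 0.000173). Psmd9 was at 11.2, 9.69, 9.71 and 12.5 CPM in CLP and 12.96, 13.3, 14.2 and 15.1 CPM in Sham. These did not overlap, although CLP replicate 4 came close to Sham. The log2 fold change was -0.37 ± 0.13 (SE, adjusted p by edgeR = 0.0345), and the call was lost on leaving out CLP replicate 2 or 3 or any one Sham library (adjusted p 0.0580 to 0.113). Psmd10, also known as gankyrin, went the other way, at 26.4, 24.8, 29.6 and 24.5 CPM in CLP and 19.7, 16.5, 11.7 and 13.9 CPM in Sham. All CLP libraries were above all Sham libraries (log2 fold change 0.77 ± 0.16 SE, adjusted p by edgeR = 0.0022), but with total-count scaling the value of 0.22 did not pass (adjusted p = 0.2). The summed level of the 4 Psmg genes was 13.1 ± 3.20 CPM after CLP against 22.4 ± 1.91 CPM after Sham (SD, n = 4), a ratio of 0.585 by TMM and 0.399 by total counts.

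The activators, which open the core in place of the 19S cap, were all higher by TMM, against 24.9% of all genes tested. None was called with total-count scaling, where 11.7% of all genes tested were higher and 56.6% lower. Psme1, the alpha subunit of PA28, had 190, 159, 181 and 169 CPM in CLP and 143, 157, 119 and 143 CPM in Sham. Its groups were apart by a narrow margin, between CLP replicate 2 and Sham replicate 2. The log2 fold change was 0.32 ± 0.12 (SE, adjusted p by edgeR = 0.0374) by TMM and -0.23 by total counts, and the call was lost on leaving out any one of 6 libraries, CLP replicates 1, 3 and 4 and Sham replicates 1, 3 and 4 (adjusted p 0.0549 to 0.0867), and with no filter on low counts (0.157). Psme2, the partner subunit of PA28, had 98.9, 99.2, 125 and 113 CPM in CLP and 72.6, 83.7, 64.7 and 76.3 CPM in Sham. The groups did not overlap (log2 fold change 0.55 ± 0.12 SE, adjusted p by edgeR = 0.0026). A near copy, Psme2b, had 347 to 551 counts in Sham and 70 to 97 counts in CLP (adjusted p by edgeR = 1.65e-05), so how reads were shared between the copies makes the value of Psme2 uncertain.

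Psme3, the nuclear activator PA28 gamma, was at 103, 98.6, 99.0 and 94.6 CPM in CLP and 80.8, 70.9, 63.6 and 69.1 CPM in Sham. The groups did not overlap, with a log2 fold change of 0.47 ± 0.10 (SE, adjusted p by edgeR = 0.00234). Psme4, the single-chain activator PA200, was at 191, 197, 178 and 186 CPM in CLP and 137, 136, 131 and 138 CPM in Sham. These values were tight within each group and well apart (log2 fold change 0.47 ± 0.09 SE, adjusted p by edgeR = 0.00137), while with total-count scaling Psme3 and Psme4 stood at -0.08 for each. Psmf1 (ENSMUSG00000032869), which encodes the inhibitor PI31, fell. It had 15.1, 14.5, 12.9 and 12.9 CPM in CLP and 20.3, 20.7, 18.8 and 18.8 CPM in Sham. No CLP library reached the Sham range, and the log2 fold change was -0.51 ± 0.11 (SE, adjusted p by edgeR = 0.00285) by TMM and -1.06 by total counts.

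Each gene was also set against the summed counts of the other 20S and 19S subunits in the same library, a measure chosen after the data were seen that needs no scaling between libraries and was given no test. By this measure 7 of the 44 genes were higher in CLP without overlap, against 10.3% of all genes tested. They were Psmb4, Psmb6, Psmb7, Psmd1, Psmd8, Psmd11 and Psmd12. In 13 genes the CLP libraries were all lower, against 48.1% of all genes tested. These were Psma6, Psma7, Psma8, Psmb1, Psmc2, Psmc3 and Psmd6 of the subunits, 5 assembly chaperones and Psmf1. Psmd5 had 10.3 ± 0.366 counts per 1000 subunit counts in Sham and 4.12 ± 0.400 in CLP (SD, n = 4). For Psmg2 the values were 4.33 ± 0.608 in Sham and 1.17 ± 0.273 in CLP, and for Psmf1 12.6 ± 0.726 in Sham and 6.42 ± 0.565 in CLP. Psmd11 had 45.8 ± 1.62 per 1000 in Sham and 73.9 ± 11.6 in CLP. The 4 activators, Psmd10 and Psmg4 overlapped between the groups.

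**Figure D3:**
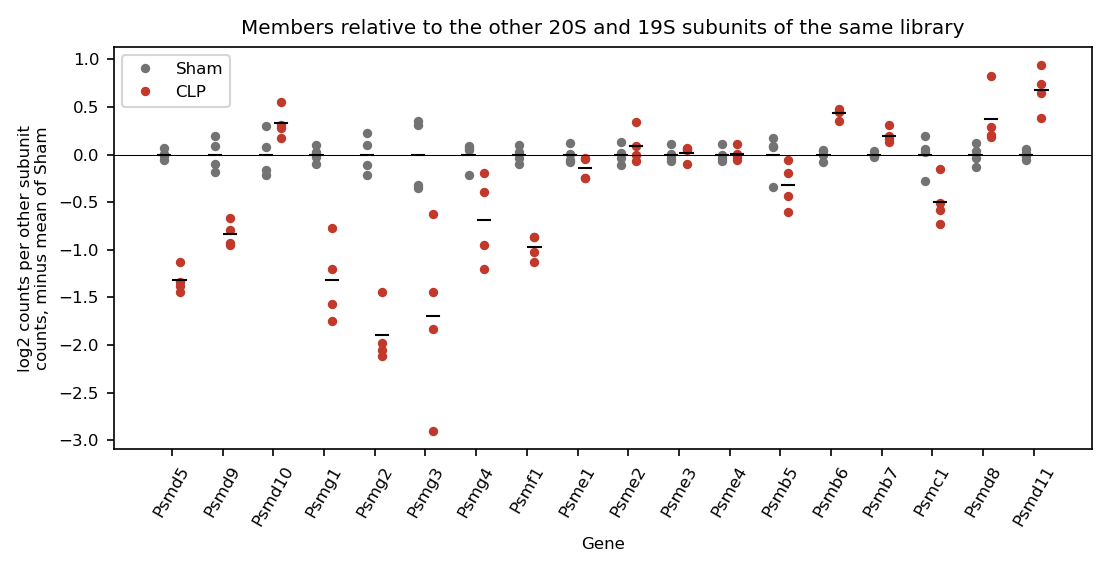
Counts of 18 genes relative to the summed counts of the other 20S and 19S subunits in the same library (log2, minus the Sham mean), with a point per library and a bar at each group's mean (4 Sham in grey, 4 CLP in red). The CLP points of Psmd5, Psmd9, Psmg1, Psmg2, Psmg3 and Psmf1 lie below all Sham points, those of Psmb6, Psmb7, Psmd8 and Psmd11 above, and the activators overlap.

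In the immunoproteasome, Psmb8, Psmb9 and Psmb10 take the places of Psmb5, Psmb6 and Psmb7. Relative to its constitutive counterpart, the immune subunit was lower after CLP in 2 of the 3 pairs. The ratio of Psmb9 to Psmb6 counts was 0.612, 0.457, 0.527 and 0.464 in CLP replicates 1 to 4 and 1.10, 1.55, 1.09 and 1.25 in Sham replicates 1 to 4. No values overlapped, and the log2 difference was -1.27 (exact permutation test, two-sided, p = 0.0286, the smallest that 4 against 4 can give, and 0.0429 adjusted over 3 pairs). The ratio of Psmb10 to Psmb7 was 1.06, 0.908, 1.28 and 0.864 in CLP and 1.46, 1.67, 1.43 and 1.45 in Sham, again without overlap (log2 difference -0.56, exact p = 0.0286, adjusted 0.0429). The overlap of 34.9% of Psmb7 exon bases with Nek6 on the opposite strand applies to this ratio as well. Without any one CLP library the adjusted exact p stayed at 0.0429 for both pairs, and without any one Sham library it was 0.0857 for both. In each case the groups still did not overlap in either pair. The adjusted p of a pair also depends on the p of the other pairs. The value of 0.0857 therefore does not show that the separation of either pair rested on a Sham library. The ratio of Psmb8 to Psmb5 was 5.44, 4.48, 6.22 and 5.48 in CLP and 4.96, 6.64, 7.37 and 5.95 in Sham, which overlapped (log2 difference -0.20, exact p = 0.286). These ratios compare counts of genes of different length and need no scaling between libraries. On their own, Psmb8 (log2 fold change -0.05, adjusted p by edgeR = 0.773) and Psmb10 (0.10, adjusted p = 0.569) were not called. Psmb9 was lower at -0.40 (adjusted p by edgeR = 0.0316), with overlapping libraries, and that call was lost on leaving out CLP replicate 2, 3 or 4 or Sham replicate 1, 2 or 4 (adjusted p 0.0541 to 0.128), and with DESeq2 (0.0638).

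**Figure D4:**
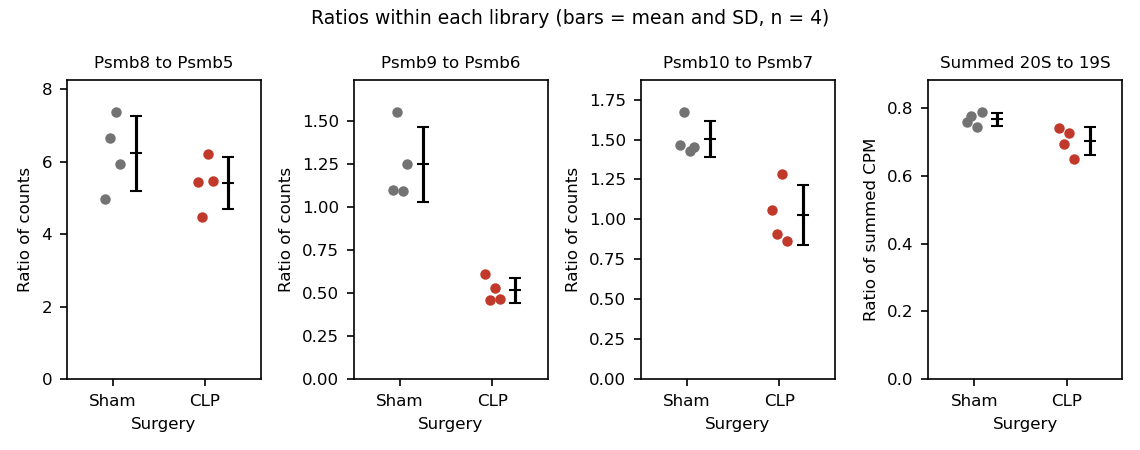
Ratio of immunoproteasome to constitutive subunit counts for 3 pairs, and of summed 20S to summed 19S CPM, in each library (points, 4 Sham and 4 CLP), with the mean and SD beside them and vertical axes that start at 0. The ratios of Psmb9 to Psmb6 and of Psmb10 to Psmb7 do not overlap between the groups, while those of Psmb8 to Psmb5 do.

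Levels per exon length differed widely among the genes of this complex. The length is that of all annotated exons of a gene joined, which can exceed that of the transcript expressed. The part of annotation in these differences was not tested. In Sham, Psme1 had the highest value at 126 CPM per kb, followed by Psma6 at 95.0 and Psme2 at 76.1 CPM per kb. The lowest were Psma8 at 2.31 and Psmg3 at 3.41 CPM per kb, and the assembly chaperones ranged from 3.41 to 11.0 CPM per kb, below every subunit except Psma8. Subunits of the core differed by 6.29-fold to 7.89-fold per kb within a library, leaving out Psma8, and those of the cap by 3.17-fold to 4.75-fold. The core range includes Psmb5 (14.3 CPM per kb in Sham), whose place Psmb8 can take, and Psmb1 (14.7), whose exon length is 3427 bases. Within a group the proteasome genes varied less than all genes tested, which were not matched to them for level. Their median coefficient of variation was 8.15% in Sham and 7.94% in CLP, against 13.8% and 20.7% over all genes tested. Their median Sham level was also higher, at 41.2 CPM against 12.97 CPM over all genes tested. The chaperones, with a median Sham level of 6.73 CPM, had a median coefficient of variation of 8.76% in Sham and 24.9% in CLP. The part of expression level in these differences was not tested. Across the 32 subunits, the log2 fold change had a Spearman correlation of -0.06 with the Sham level per kb, -0.20 with GC content and 0.23 with exon length, across genes that share libraries and are not independent replicates.

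**Figure D5:**
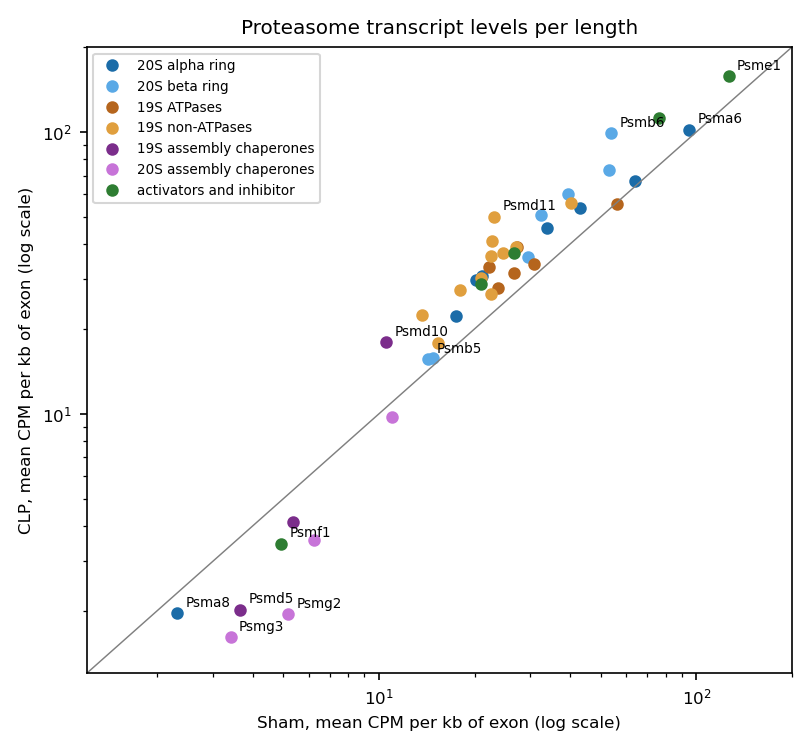
Mean level per kb of exon in Sham (horizontal) and CLP (vertical) for each of the 44 genes, both on log axes, coloured by role, with a line where both are equal (4 libraries per group, TMM scaling). Psme1 is at the top at 126 CPM per kb in Sham, the chaperones and Psmf1 sit at the lower left, mostly under the line, and Psmd11 and Psmb6 lie farthest above it among the subunits; with total-count scaling most subunits would lie at or under the line.

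Outside the Psm names, genes that serve the proteasome were mixed. The 35 tested genes covered the 2 remaining cap subunits, proteasome assembly and binding, transcription control, substrate delivery and ubiquitin supply. Of these 35, 19 were higher (54.3%, against 24.9% of all genes tested) and 7 lower (20%, against 29.5%). With total-count scaling 8 were higher and 15 lower, against 11.7% and 56.6% of all genes tested. The 2 remaining cap subunits, the ubiquitin receptor Adrm1 and the small subunit Sem1, rose by log2 fold changes of 0.70 and 0.52 by TMM (adjusted p by edgeR = 0.000189 and 0.00112), and with total-count scaling neither was called. Pomp, the chaperone that completes the beta ring, had 98.5 to 106 CPM in CLP and 63.6 to 78.9 CPM in Sham, without overlap, so unlike the Psmg genes it was higher (log2 fold change 0.48, adjusted p by edgeR = 0.00215), though at -0.07 by total counts. Usp14, a deubiquitinase that binds the cap, rose by 0.75 (adjusted p by edgeR = 0.000117), with 0.19 and no call by total counts. Of 4 tested transcription control genes, Nfe2l2 rose from 177 to 285 CPM in Sham to 371 to 615 CPM in CLP (log2 fold change 1.14, adjusted p by edgeR = 0.000736). Nfe2l1, the factor known to restore proteasome genes when the proteasome is blocked, was at 159 to 185 CPM in CLP and 132 to 152 CPM in Sham. Its log2 fold change was 0.28 (adjusted p by edgeR = 0.0374) by TMM but -0.28 by total counts, where it was called lower (adjusted p = 0.0292). The TMM call was also lost on leaving out CLP replicate 2 or 3 or Sham replicate 2, 3 or 4 (adjusted p 0.0587 to 0.122), and with no filter on low counts (0.221). Ddi2, the protease that activates Nfe2l1, fell by 0.42 on the log2 scale (adjusted p by edgeR = 0.0196).

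Among proteins that bind the proteasome or bring substrates to it, Sqstm1, Zfand5 and Zfand2a had higher fold changes than any subunit. Sqstm1, the ubiquitin-binding receptor p62, had 1417 to 2287 CPM in CLP and 258 to 375 CPM in Sham (log2 fold change 2.58 ± 0.21 SE, adjusted p by edgeR = 6.31e-06). Zfand5, a zinc finger protein that activates the proteasome, had 909 ± 198 CPM after CLP against 164 ± 18.1 CPM after Sham (SD, n = 4), with no overlap (log2 fold change 2.47 ± 0.17 SE, adjusted p by edgeR = 3.82e-06). Zfand2a, a related protein induced by arsenite, had 57.3 ± 11.0 CPM after CLP against 19.1 ± 1.05 CPM after Sham (SD, n = 4; log2 fold change 1.59, adjusted p by edgeR = 1.04e-05). All 3 were also called higher with total-count scaling.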

How the data were processed

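Total RNA of sorted Kupffer cells was sequenced from libraries of a stranded kit, per the labels' protocols. The deposited table holds whole read counts per Ensembl gene for 8 libraries, with 23311897 to 28724875 counts each. FastQC, STAR 2.7.10b, featureCounts, DESeq2 and the assembly mm39 were used by the authors, per the submitters' processing notes. The annotation release, multi-mapping rule and strand setting are each not given in the sources used here.

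Symbols, exon lengths and GC content came from GENCODE M21 by Ensembl ID (52081 of 55414 IDs). This release and the RefSeq promoters are on GRCm38, so coordinates are given for promoters only. The 4 rows named as pseudogenes of proteasome genes held 0 to 2 counts per library. The comparison of CLP with Sham used edgeR 4.0.16 in R 4.3.3: filterByExpr, TMM factors, a design with the group alone, and the robust quasi-likelihood F-test, adjusted by Benjamini-Hochberg over 14655 genes at 0.05. An approximate SE was taken as the log2 fold change divided by the root of F. CPM values carry sample SDs. Ratios within libraries were compared by two-sided exact permutation. Alternatives were DESeq2 1.42.0, total-count scaling, a smooth GC offset, no filter, a replicate block and leaving out each library.

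Values by library are given for Psmb5, Psmb6 and Psmb7, for the 3 highest and 3 lowest fold changes of core and cap, and for all chaperones, activators and the inhibitor. Of the pathway lists, Psmb8, Psmb9, Psmb10, Adrm1, Pomp, Nfe2l1, Nfe2l2 and Usp14 were named, with the 3 others of smallest p; 1 further gene of that rule is not reported here. Sem1, Ddi2 and Psme2b, and the core and cap members named with a fold change alone, are outside that rule and were chosen after their values were seen. The members, lists and alternatives were chosen with earlier results of these data known. Paaf1 was not matched and is not analysed here.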

Additional observations from a re-analysis of the deposited data

Results flagged for a closer look

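In 3 of 82 groups of 4 libraries checked, a single library lay far from the others, and chance alone marks about 1 in 20 groups. Psmd8 was at 124 CPM in CLP replicate 4, against 76.5 to 81.7 CPM in the other CLP libraries. Nfe2l2 was at 285 CPM in Sham replicate 1, against 177 to 193 CPM in the other Sham libraries. The ratio of Psmb10 to Psmb7 counts was 1.67 in Sham replicate 2, against 1.43 to 1.46 in the other Sham libraries.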

How the results depend on the processing

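Most of the higher calls depended on the scaling. With total-count scaling 2 proteasome genes were higher and 17 lower, with 1 core and 1 cap subunit higher, and the medians were -0.21 for the core, -0.0197 for the cap and -0.60 for all genes. Log2 fold changes then turned to -0.42 for Psmb5, -0.48 for Psma7, -0.46 for Psmb1, -0.41 for Psmc2, -0.34 for Psmd13, -0.23 for Psme1, -0.0763 for Psme3, -0.0849 for Psme4, -0.45 for Psmb10, -0.0692 for Pomp and -0.28 for Nfe2l1. Relative to the other subunits, Psme1 turned to -0.14. With DESeq2, Psmc1 was 0.0473 and Psmb8 0.00804. Leaving out a library gave 24 to 25 genes higher and 4 to 5 lower, 8 to 10 core and 11 to 12 cap subunits higher, -0.00889 to 0.23 for Psmb5, -0.14 to 0.0744 for Psmc1 and -0.16 to 0.0394 for Psmb8. Over the whole table, 6960 to 9232 genes were then called in either direction, against 7963 with all libraries. Leaving out a library gave log2 differences of -1.36 to -1.16 for Psmb9 to Psmb6 and -0.68 to -0.49 for Psmb10 to Psmb7. The adjusted exact p was then 0.0429 without any one CLP library and 0.0857 without any one Sham library, with no overlap between the groups in either pair. With no filter, 22 genes (7 core, 11 cap subunits) were higher and 6 lower, and with the GC correction 26 (9 core, 12 cap) and 6. The whole table then had 8354 and 8026 genes called in either direction. With the replicate number as a block, 24 genes were higher and 5 lower, and with the block and the GC correction also 24 and 5. Over the whole table, 7794 and 7817 genes were called in these fits. Among the genes named by the rule, the block alone ended the calls of Psmd9 (adjusted p 0.0543), Psme1 (0.0714), Psmb9 (0.0601) and Nfe2l1 (0.0666). Same-numbered libraries deviated together with correlations of -0.125 to 0.172, and CLP replicate 1 correlated best with Sham replicate 4 (0.335). These few values cannot settle whether the numbers pair samples, and the labels do not say. The lowest counts of a called proteasome gene were those of Psmg3, 10 to 55 in CLP.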
